A study of Homo sapiens with 6 samples.

Results

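Ribosomal proteins are the protein part of the cytosolic ribosome, which is assembled from a large and a small subunit around ribosomal RNA. The genes described here are the rows of the deposited AGS table whose symbol begins with RPL or RPS and a number or is an RPLP or RPSA symbol, with the S6 kinase genes (RPS6K) left out. The rule took 58 of the 1099 genes of the table, 35 with a large subunit name and 23 with a small subunit name. Of these, 50 are canonical ribosomal protein genes, 5 are paralogs (RPL39L, RPL22L1, RPL36AL, RPL7L1 and RPS27L), and 3 are the pseudogenes RPL23AP42 and RPS2P5 and the read-through gene RPL36A-HNRNPH2. FAU, which encodes a ribosomal protein fused to a ubiquitin-like protein, lies outside the name rule and is given apart. The list of canonical genes holds 79, of which 52 were in the table and 27, among them RPL3, RPL4, RPLP0, RPSA and RPS2, are not analysed here.

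AGS is an established human gastric adenocarcinoma line, wild type per the labels. It was given vehicle or SSD (saikosaponin-D, a triterpenoid saponin of Radix Bupleuri) for 24 h, and polyA RNA was sequenced in 3 libraries per group. The labels' protocol fields name another line (C4-2B) and another compound (L14-8 at 10 uM), and the study's methods give a different dose, so the dose is not settled. The labels do not say whether the libraries came from separate cultures, and the study's methods speak of independent experiments only in general, so the p-values measure the spread between these libraries, which may be technical. The table lists for each gene an estimated read count and the TPM, the share of transcripts after correction for gene length. It is a selection on the outcome: its rows are the genes with the smallest p of 11289 in the authors' own comparison, so a gene outside it cannot be read as unchanged. Its genes held 30.1% to 33.1% of the TPM and 3084337 to 4640114 counts per library, which is part of each library and not its depth. Of 10 epithelial line markers only TFF1 was in the table, and of 10 prostate line markers only SLC45A3 was, so the line could not be checked against its defining markers. TFF1, a secreted peptide of gastric mucosa, was at 81.5, 71.4 and 70.0 TPM in vehicle cells and 52.7, 53.5 and 33.3 TPM in SSD cells, and SLC45A3 was at a mean of 9.19 TPM in vehicle cells and 7.43 TPM in SSD cells. By the test described further on, TFF1 was lower under SSD (log2 fold change -0.75, adjusted p = 0.014) and SLC45A3 was not called (-0.33, adjusted p = 0.16).

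Each ribosome needs a single copy of nearly every ribosomal protein, and excess copies are degraded, so the members are made in step across many unlinked genes. Most of their mRNAs begin with a C followed by a run of pyrimidines, the 5′ terminal oligopyrimidine (TOP) tract, through which their translation follows mTOR signalling and LARP1. In proliferating carcinoma lines they are among the most abundant mRNAs, and their transcription is known to respond to MYC.

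The TOP tract is shown for members at both ends of the range of change, to let the start sequences be set beside the values given further on. The windows hold 10 bases before and 20 bases from the annotated RefSeq start on GRCh38.p14, 5′ to 3′ on the transcript strand. Capitals mark a C followed by at least 4 bases that are each C or T, beginning within 5 bases of that start.
RPL39 (chrX:119791611-119791640, minus strand): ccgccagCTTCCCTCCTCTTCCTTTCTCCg
RPL24 (chr3:101686699-101686728, minus strand): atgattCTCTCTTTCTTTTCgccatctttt
RPL35 (chr9:124861938-124861967, minus strand): cgcctaCTTCCTCTTTCCCTCggagcgggc
RPS23 (chr5:82278335-82278364, minus strand): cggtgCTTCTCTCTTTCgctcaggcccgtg
RPS21 (chr20:62387093-62387122, plus strand): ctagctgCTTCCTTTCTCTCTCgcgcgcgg
RPL41 (chr12:56116623-56116652, plus strand): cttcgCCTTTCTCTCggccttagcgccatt
RPS24 (chr10:78033853-78033882, plus strand): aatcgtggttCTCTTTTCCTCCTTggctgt
RPS3A (chr4:151099618-151099647, plus strand): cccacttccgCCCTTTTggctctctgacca
RPL27 (chr17:42998409-42998438, plus strand): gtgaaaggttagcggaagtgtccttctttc
RPS29 (chr14:49598691-49598720, minus strand): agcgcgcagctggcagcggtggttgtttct

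RPL39 held the longest run of those printed, at 22 bases, while RPL27 and RPS29 had none beginning within 5 bases of the start. The RPL27 window ends in pyrimidines that begin further in and are not marked. Of the members, 47 had a RefSeq promoter entry, and 39 of them (83.0%) held such a run, against 5749 of 27305 promoters of all genes (21.1%). A run of at least 8 pyrimidines was found in 33 of the 47 (70.2%), against 5.36% of all promoters. Only the transcript strand was searched. A match describes the letters at the annotated start, and a window without capitals says only that no such run begins within 5 bases of that start. The run was present near both ends of the range of change: RPL39, RPS23 and RPS21 were among the lowest members under SSD, and RPL41, RPS24 and RPS3A among the highest. Of the 36 canonical members with a run, 15 were called lower (the call and its background of 19.6% are given further on) and the median log2 fold change was -0.19. Of the 6 without a run at that place (RPL6, RPL9, RPL17, RPL27, RPS27A and RPS29) 4 were called lower and the median was -0.24.

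The members were abundant in vehicle cells. Their median vehicle mean was 2097 TPM, against 53.9 TPM over all genes of the table. RPS27, a zinc-binding small subunit protein, was the most abundant gene of the table, at 10358 ± 558 TPM (SD, n = 3), and RPL41 at 6896 ± 316, RPS18 at 6787 ± 259 and RPS23 at 6505 ± 153 TPM were also among the most abundant members. RPL41 and RPS18 differed by less than their spread, so their order is not firm. Among canonical members only RPL9, a protein near the factor-binding site of the large subunit, stood far below the rest, at 79.7 ± 2.46 TPM, with RPL34 next at 703 ± 30.2 TPM. The pseudogene row RPL23AP42 was at 2686 ± 32.3 TPM. Each canonical member has 1 to 66 pseudogenes carrying its name in GENCODE release 29, with a median of 10, and how the authors shared reads among such copies is not stated, so levels of single members are uncertain to that extent.

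**Figure D1:**
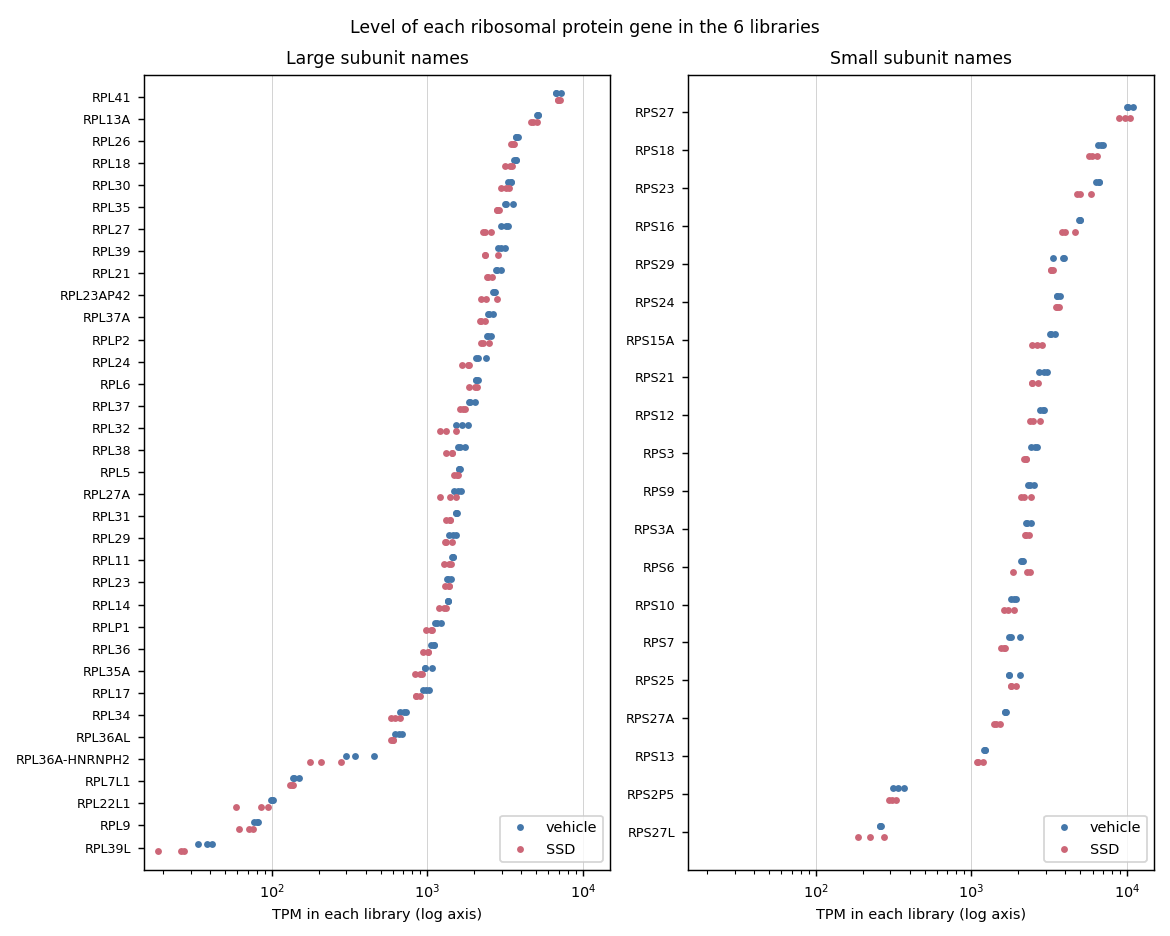
TPM of each member reported by name in each of the 6 libraries on a log axis, sorted by the vehicle mean, with large subunit names on the left and small subunit names on the right (points: single libraries; blue, vehicle; red, SSD). Most members lie between 703 and 10358 TPM in vehicle cells, and the points of the 2 groups lie within a short distance of each other compared with the range between genes.

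Under SSD the members took a smaller part of the transcripts. Their summed TPM was 149508, 146246 and 142056 in the vehicle libraries and 136310, 128148 and 130667 in the SSD libraries, so each SSD library lay below each vehicle library. The members made up 14.6% ± 0.374 (SD, n = 3) of all transcripts in vehicle cells and 13.2% ± 0.418 in SSD cells, which is 9.75% lower. The other genes of the table, chosen on change like the members, made up 18.1% ± 0.033 in vehicle cells and 17.3% ± 0.092 in SSD cells, which is 4.46% lower, and the whole table was lower by 6.82%. Large subunit genes summed to 68952 ± 1270 TPM in vehicle cells and 62422 ± 1112 TPM in SSD cells, and small subunit genes to 76985 ± 2523 and 69286 ± 3070 TPM. The 2 subunits were thus lower by 9.47% and 10.0%. These are shares of the sequenced transcripts of a bulk sample, in which fewer cells of a type and less RNA per cell cannot be told apart. A lower share also cannot be told apart from a rise of other transcripts. The members are part of a table chosen on change, so the sums leave out 27 canonical genes that are not analysed here.

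**Figure D2:**
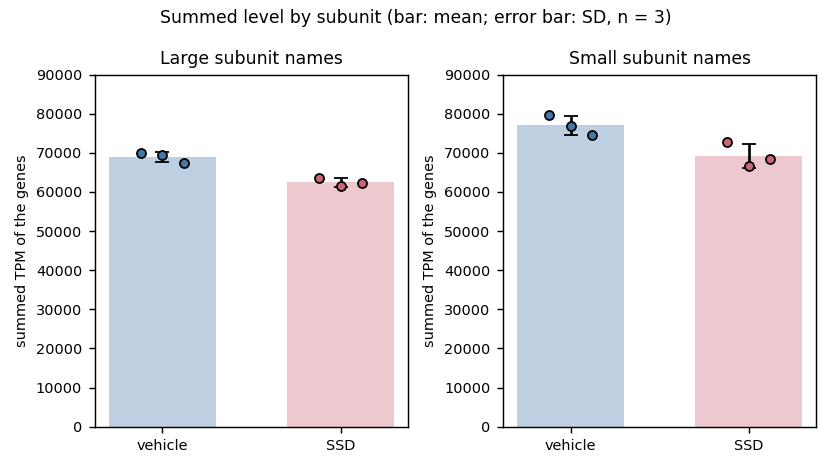
Summed TPM of the 35 genes with large subunit names and the 23 with small subunit names in each library (points), with the mean (bar) and SD (error bar, n = 3). In both panels the 3 SSD libraries lie below the 3 vehicle libraries.

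Single genes were tested with edgeR's quasi-likelihood test on the rounded counts, with Benjamini-Hochberg adjustment over the 11289 genes. Libraries were scaled by the ratio of counts to TPM, which reflects all genes of a library (whole-library scale). A log2 fold change is SSD over vehicle, and a gene was called when its adjusted p was under 0.05. Of the 58 members, 24 were called lower and 0 higher. DESeq2's Wald test called 36 lower (62.1% of members, background 26.4%) and 0 higher. At an unadjusted p under 0.05, 46 were lower and 0 higher. No table-wide share was counted at that limit, and a table chosen on small p holds many such genes. The 24 are 41.4% against a background of 19.6% of table genes called lower (215 genes) and 33.8% called higher (372 genes). By subunit, 15 of 35 large and 9 of 23 small subunit names were called lower. All 58 members had a log2 fold change below 0, as had 64.8% of all table genes. The median was -0.20 for large and -0.21 for small subunit names, against -0.14 over the table. That table median and the 19.6% take in 387 genes with values above 0, while no member had such a value. No background was taken over the lower genes alone. All 215 genes called lower are among the 712 table genes below 0, so that share would be above 19.6%. The SD of these subunit medians between libraries of a group was 0.042 and 0.043.

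The number called depended strongly on scale and on single libraries. With TMM scaling, which takes most genes as unchanged, 8 members were called lower (13.8% of members, background 7.92%) and 0 higher. DESeq2's size factors gave 9 lower (15.5%, background 7.83%). Backgrounds here are over all 1099 genes, and 387 of these lay above 0 on the whole-library scale, where no member did. Such a background is lower than the share among genes of the members' direction alone. Totals of the table gave 13 (22.4%, background 11.5%). Leaving the members out of the scale gave 37 (63.8%, background 28.4%), and adjustment over the table alone 46 (79.3%, background 52.8%). Limma on log2(TPM + 1) called 1 member lower, RPL27 (1.72%, background 5.46%). Over the whole table the calls were 215 lower and 372 higher on the whole-library scale, 87 and 385 with TMM, 86 and 387 with DESeq2's size factors, 126 and 386 with totals of the table, and 312 and 354 with the members left out of the scale. Without vehicle replicate 2, 7 members were called lower (12.1%, background 7.1%), and without vehicle replicate 3, 13 (22.4%, background 8.64%). Without SSD replicate 2, 7 were (12.1%, background 7.37%). The sign of the fitted change depended on the scale too. All 58 members were below 0 on the whole-library scale, 54 with TMM (RPL41, RPL23, RPS24 and RPS3A were just above it) and 48 with DESeq2's size factors. Fitted changes of the table fell into 2 arms with no gene between -0.032 and 0.21 on the whole-library scale, and all 58 members lay in the lower arm, as did 712 of the 1099 genes. A change of scale moves all genes alike, so these counts are the same with TMM, where the empty stretch ran from 0.039 to 0.28. A table chosen on p leaves out the genes near the centre of that choice, so each member in it had to lie in either arm.

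**Figure D3:**
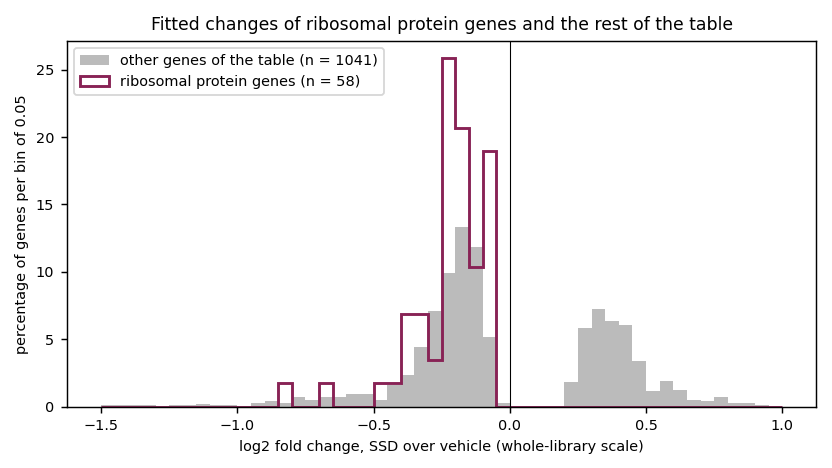
Percentage of genes per bin of 0.05 in log2 fold change (SSD over vehicle, whole-library scale) for the 58 members (purple outline) and the other 1041 genes of the table (grey). The members all lie in the lower of the 2 arms, between -0.80 and -0.058 on this scale, and 4 of them have values just above 0 with TMM.

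Changes were small. Only RPL36A-HNRNPH2 and RPL39L passed a 1.5-fold change, and the other 56 members lay under it. The standard errors of the log2 fold changes had a median of 0.051, against 0.063 over all table genes. In each of the 6 fits that left out a library, 7 calls held: RPL27, RPL39, RPL24 and RPL35 of the large and RPS15A, RPS23 and RPS21 of the small subunit. How many table genes were called in all 6 of these fits was not counted. In TPM, the SSD and vehicle groups did not overlap, with SSD lower, for 38 of 58 members (65.5%), against a background of 44.2% of table genes. That background is 486 of 1099 genes and takes in the 387 of the upper arm, which holds no member. Against the 712 genes of the lower arm alone it would be higher, so no excess of members can be read from these shares.

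RPL27 (ENSG00000131469), a large subunit protein whose gene is among those mutated in Diamond-Blackfan anaemia, showed the lowest value of the canonical members. It lies on chromosome 17 from 42998273 to 43002959 (GRCh38, plus strand). Its TPM was 3302, 3184 and 2983 in vehicle cells and 2556, 2289 and 2344 in SSD cells. The groups did not overlap, and its log2 fold change was -0.47 (SE 0.050, adjusted p = 0.0012). It remained called with TMM (-0.40, adjusted p = 0.0017).

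Canonical members at the rim of the polypeptide exit tunnel, through which the nascent chain leaves, are RPL39, RPL35, RPL17, RPL31 and RPL26. This grouping was made after the values were seen and takes in no pseudogene row. It thus leaves out RPL23AP42, whose reads may belong to RPL23A and which edgeR did not call (adjusted p = 0.11). All 5 were called lower on the whole-library scale, where 41.4% of members and 19.6% of table genes were, 2 of them with TMM, and 0 with the length term described further on or with limma. RPL39 (ENSG00000198918), which reaches into the tunnel, had 3172, 2962 and 2861 TPM in vehicle cells and 2830, 2338 and 2360 TPM in SSD cells. Each SSD library was below each vehicle library, and SSD replicate 1 was nearest to the vehicle libraries. Its log2 fold change was -0.38 (SE 0.063, adjusted p = 0.0062; with the length term -0.26, adjusted p = 0.16). RPL35 (ENSG00000136942), which docks factors acting on the nascent chain, had 3546, 3195 and 3174 TPM in vehicle cells and 2904, 2797 and 2798 in SSD cells, a log2 fold change of -0.31 (SE 0.044, adjusted p = 0.0035; with the length term -0.22, adjusted p = 0.069). RPL17, RPL31 and RPL26 had log2 fold changes of -0.23, -0.21 and -0.15 with adjusted p of 0.013, 0.019 and 0.049, and none of these 3 was called with TMM.

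RPL24 (ENSG00000114391), which forms a bridge to the small subunit, had 2369, 2066 and 2103 TPM in vehicle cells and 1827, 1668 and 1841 TPM in SSD cells. These did not overlap, and the log2 fold change was -0.33 (SE 0.055, adjusted p = 0.0066). RPL38, known in mice for its part in translating Hox mRNAs, was at -0.27 (adjusted p = 0.018). RPL21, RPL32, RPL37A and RPL37, structural proteins of the large subunit, were also called lower, at -0.24, -0.21, -0.21 and -0.20. None of RPL38, RPL21, RPL32, RPL37A and RPL37 was called with TMM.

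The remaining canonical members of the large subunit were not called. RPL9, RPL34 and RPL35A had log2 fold changes of -0.25, -0.23 and -0.23, as low as called members but with larger standard errors of 0.067, 0.067 and 0.060. RPLP1 and RPLP2, the acidic stalk proteins that recruit elongation factors, were at -0.19 each. RPL36, RPL30, RPL18, RPL14 and RPL29 lay at -0.19, -0.17, -0.17, -0.15 and -0.14. RPL27A, RPL6 and RPL13A, the last known as a part of the interferon-gamma-activated inhibitor of translation complex, lay at -0.13, -0.091 and -0.089. DESeq2's Wald test called RPL34, RPL35A, RPL36, RPLP1, RPLP2, RPL30, RPL18 and RPL14 of these lower.

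RPL5, RPL11 and RPL23 are among the ribosomal proteins that bind MDM2 and inhibit it when ribosome assembly is disturbed, RPL5 and RPL11 together with the 5S ribosomal RNA. They were not called, with log2 fold changes of -0.076 for RPL5, -0.11 for RPL11 and -0.061 for RPL23. RPL26 and RPS7, also known to bind MDM2, were called lower, but neither with TMM or the length term. Of the 6 fits that left out a library, 0 kept the call of RPL26 and 1 that of RPS7. RPL23 (ENSG00000125691) was the highest large subunit name, with 1414, 1357 and 1339 TPM in vehicle cells and 1303, 1386 and 1385 TPM in SSD cells. These overlap, with SSD replicates 2 and 3 above vehicle replicates 2 and 3 (SE 0.047, adjusted p = 1), and its log2 fold change was 0.0098 with TMM. RPL41 (ENSG00000229117), which encodes the shortest ribosomal protein, had 7261, 6721 and 6706 TPM in vehicle cells and 7071, 6912 and 6906 TPM in SSD cells. Its mean TPM was slightly higher under SSD while its log2 fold change on counts was -0.066 (SE 0.043, adjusted p = 1) and 0.0051 with TMM, so no direction can be given.

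Among the small subunit names, RPS15A (ENSG00000134419), an rRNA-binding protein of the subunit body, was lowest, with 3455, 3224 and 3186 TPM in vehicle cells and 2828, 2464 and 2647 TPM in SSD cells. The groups were apart, and the log2 fold change was -0.37 (SE 0.053, adjusted p = 0.0036; with TMM -0.30, adjusted p = 0.010). RPS23 (ENSG00000186468) sits in the decoding centre, where codon and tRNA are matched. It had 6593, 6594 and 6328 TPM in vehicle cells and 5838, 4782 and 4975 TPM in SSD cells, a log2 fold change of -0.37 (SE 0.057, adjusted p = 0.0051; with TMM -0.29, adjusted p = 0.026). RPS21 (ENSG00000171858), a short protein found in eukaryotic but not bacterial ribosomes, had 3057, 2940 and 2725 TPM in vehicle cells and 2672, 2459 and 2439 TPM in SSD cells. Its highest SSD library was close to its lowest vehicle library, and its log2 fold change was -0.35 (SE 0.056, adjusted p = 0.0053; with TMM -0.28, adjusted p = 0.018; with the length term -0.20, adjusted p = 0.17).

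A further 6 small subunit names were called lower, none of them with TMM. RPS29, a zinc-binding protein of the subunit head, and RPS16, whose tail reaches the peptidyl tRNA, had log2 fold changes of -0.34 and -0.30 (with the length term -0.18 and -0.26, not called). RPS12, RPS18 and RPS7 were at -0.25, -0.24 and -0.22. RPS27A, made as a fusion with ubiquitin, was at -0.21. RPS27 had a value of -0.24 and was not called (SE 0.066, adjusted p = 0.075). RPS13, RPS10, RPS3 and RPS9 were not called, with values of -0.17, -0.16, -0.15 and -0.13. DESeq2's Wald test called RPS27, RPS13 and RPS3 lower, and it did not call RPS10 or RPS9. RPS10 and RPS3 are known as targets of the ubiquitin ligases that mark stalled ribosomes.

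RPS6, RPS25, RPS24 and RPS3A were among the members nearest to 0. RPS6, the substrate of the S6 kinases, had 2069, 2159 and 2113 TPM in vehicle cells and 1859, 2263 and 2370 TPM in SSD cells, with SSD replicate 1 below and the other SSD libraries above every vehicle library. Its log2 fold change on counts was -0.090 (adjusted p = 0.77). RPS25 was at -0.080. RPS24 (ENSG00000138326), a gene mutated in Diamond-Blackfan anaemia, had 3715, 3572 and 3538 TPM in vehicle cells and 3656, 3565 and 3487 TPM in SSD cells, a log2 fold change of -0.069 (SE 0.040, adjusted p = 1; with TMM 0.0028). RPS3A (ENSG00000145425), a protein of the mRNA exit side, had 2401, 2254 and 2279 TPM in vehicle cells and 2201, 2234 and 2333 TPM in SSD cells, a log2 fold change of -0.058 (SE 0.046, adjusted p = 1; with TMM 0.013). The groups overlapped for both.

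**Figure D4:**
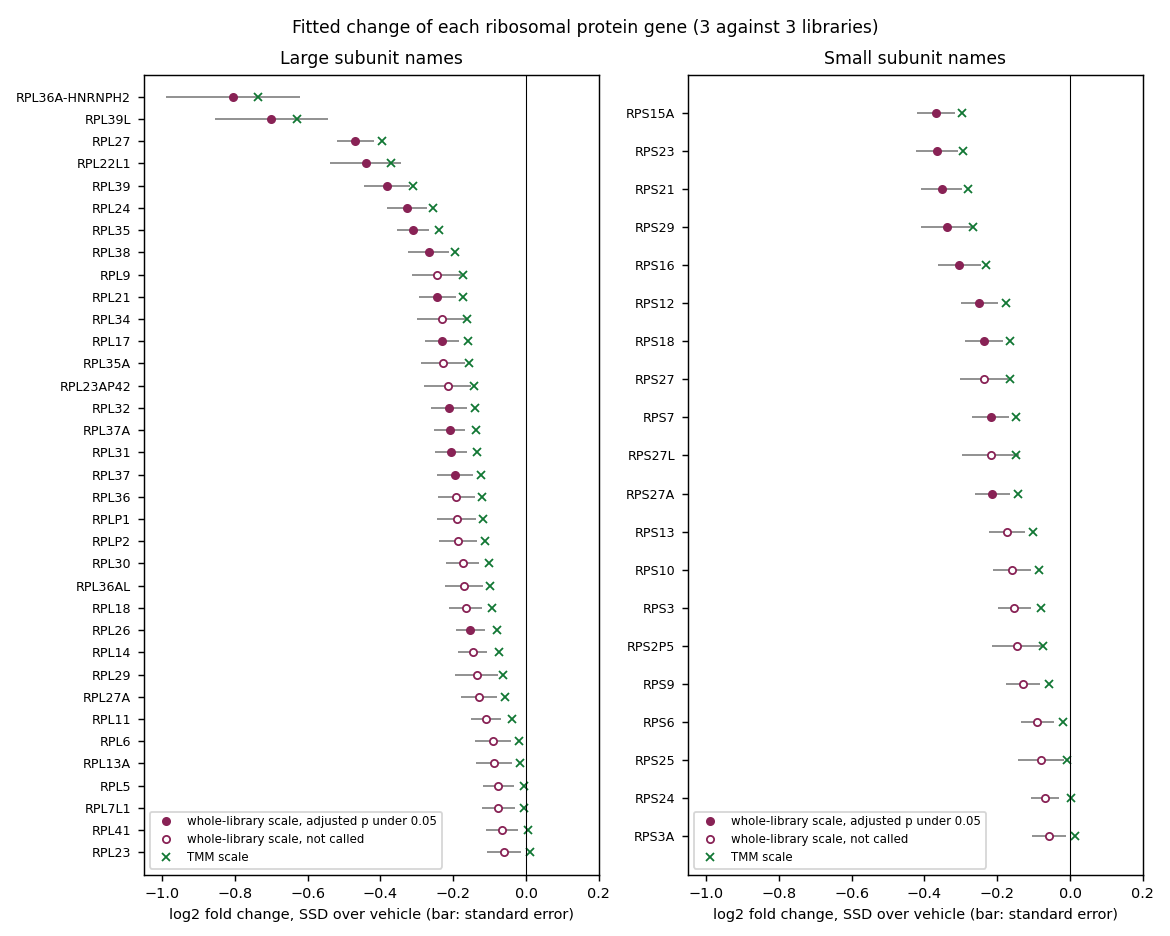
Log2 fold change (SSD over vehicle) of each member reported by name with its standard error on the whole-library scale (circles; filled, adjusted p under 0.05) and with TMM (crosses), by subunit. Whole-library values run from -0.80 to -0.058, with 24 filled circles, and the TMM values lie closer to 0, with RPL41, RPL23, RPS24 and RPS3A just above it.

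The paralogs, pseudogenes and read-through row had vehicle means from 37.7 TPM for RPL39L to 2686 TPM for RPL23AP42, and none of their calls held with the length term. RPL39L (ENSG00000163923), a paralog of RPL39 best known from the testis, had 33.3, 38.3 and 41.4 TPM in vehicle cells and 26.1, 18.5 and 27.0 TPM in SSD cells. The groups did not overlap, and the log2 fold change was -0.70 (SE 0.154, adjusted p = 0.022; with TMM -0.63, adjusted p = 0.054). RPL22L1 (ENSG00000163584), a paralog of RPL22 that can take its place, had 100.3, 101.7 and 99.3 TPM in vehicle cells and 59.0, 84.9 and 94.7 TPM in SSD cells. SSD replicate 1 was far below the others, and the log2 fold change was -0.44 (SE 0.098, adjusted p = 0.023; with TMM -0.37, adjusted p = 0.048). Of the 6 fits that left out a library, 3 kept the call of RPL39L and 1 that of RPL22L1.

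RPS27L (ENSG00000185088), a paralog of RPS27 known as a p53 target, had 261.7, 256.5 and 257.6 TPM in vehicle cells and 186.1, 223.8 and 272.1 TPM in SSD cells. SSD replicate 3 lay above all vehicle libraries, and the gene was not called (log2 fold change -0.22, SE 0.079, adjusted p = 0.25). RPL36AL (ENSG00000165502), a near copy of RPL36A, had 618, 657 and 682 TPM in vehicle cells and 604, 600 and 586 TPM in SSD cells (log2 fold change -0.17, SE 0.052, adjusted p = 0.12). RPL7L1 (ENSG00000146223), a relative of RPL7 that acts in ribosome assembly, had 149.9, 138.2 and 137.2 TPM in vehicle cells and 134.7, 129.9 and 136.1 TPM in SSD cells. Its groups were barely apart, and it was not called (log2 fold change -0.076, SE 0.045, adjusted p = 1).

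RPL36A-HNRNPH2 (ENSG00000257529) joins RPL36A and HNRNPH2 and shares exons with both on the same strand. It lies on chromosome X from 101391011 to 101412297 (GRCh38, plus strand). It had 297.6, 455.1 and 343.6 TPM in vehicle cells and 206.1, 174.5 and 277.2 TPM in SSD cells, without overlap. Its log2 fold change was -0.80 (SE 0.184, adjusted p = 0.026), and 2 of the 6 fits without a library kept the call. It was not called with TMM (-0.74, adjusted p = 0.074) or by DESeq2's Wald test (adjusted p = 0.11). Reads of this row cannot be told apart from those of its partner genes, of which RPL36A is not analysed here.

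The processed pseudogene RPL23AP42 (ENSG00000234851, chromosome 3, 161429127 to 161429597, GRCh38, minus strand) had 2694, 2713 and 2650 TPM in vehicle cells and 2811, 2377 and 2198 TPM in SSD cells. SSD replicate 1 lay above all vehicle libraries, and the row was not called (log2 fold change -0.22, SE 0.065, adjusted p = 0.11). DESeq2's Wald test did call the row lower (adjusted p = 0.033). Its 471 bases differ from RPL23A transcripts at 2 positions (99.6% identity), so its reads may belong to RPL23A, which is not analysed here. RPS2P5 (ENSG00000240342), with 11 differences from RPS2 in 879 bases (98.7% identity), had 314.0, 365.6 and 338.9 TPM in vehicle cells and 310.3, 296.1 and 329.5 TPM in SSD cells (log2 fold change -0.15, SE 0.068, adjusted p = 0.64).

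The SSD libraries did not lower all members in the same order. SSD replicate 2 was the lowest SSD library in 24 members, replicate 1 in 19 and replicate 3 in 15. In 45 members each SSD library was below the vehicle mean in TPM, and how many table genes did the same was not counted. On the whole-library scale the median member stood at -0.16, -0.25 and -0.16 (log2) against the vehicle mean in SSD replicates 1, 2 and 3, and at -0.14, -0.13 and -0.086 over all table genes. In the vehicle libraries the median member lay between -0.027 and 0.029. RPL27 and RPL35 were low in all 3 SSD libraries, at 72.5% to 81.0% and 84.6% to 87.9% of the vehicle mean, whereas RPL22L1 and RPS27L were lowest in replicate 1 and RPL23AP42 in replicate 3.

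**Figure D5:**
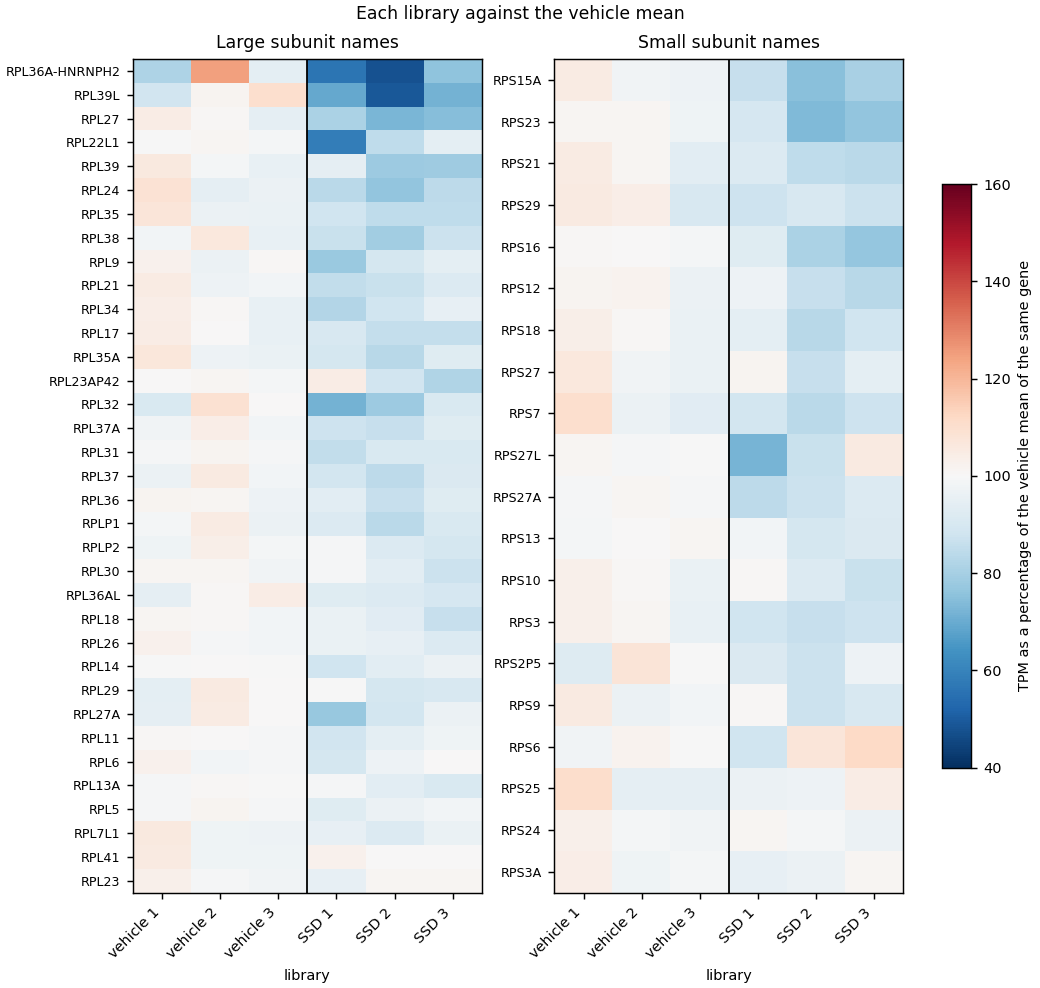
TPM of each member reported by name in each library as a percentage of the vehicle mean of the same gene (colour; blue, below; red, above), sorted by fitted change from lowest at the top, with vehicle libraries left and SSD libraries right of the line. SSD columns are blue for most members, down to 47.7% for RPL36A-HNRNPH2 in SSD replicate 2, and RPS6 is above 100% in SSD replicates 2 and 3.

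TPM and counts did not move by the same amount for many members. The count per TPM, which follows the gene length the authors' tool used in each library, was lower under SSD in 54 of 58 members, with a median log2 difference of -0.042, against -0.00081 over the table. It was lowest for RPS29, RPS21, RPS27 and RPL39, at -0.16, -0.15, -0.15 and -0.12, and highest for RPL32 at 0.11. Changes in TPM were therefore smaller than changes in counts for most members, and mean TPM was lower under SSD in 56 of 58, the exceptions being RPL41 and RPS6. With this length term in the count fit, an alternative chosen after seeing the data, 56 members lay below 0, the medians were -0.17 for both subunits, and 4 members were called lower (RPL27, RPL24, RPS15A and RPS23). That is 6.90% of the members against a background of 7.64%, so in this fit members were not called lower more often than the table. Why counts per TPM differed was not tested.

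The members are spread over 20 chromosomes and share few neighbours. Of the 50 canonical members, 17 host small nucleolar RNAs in GENCODE, 35 in all. Of these hosts 6 were called lower and the median log2 fold change was -0.17. Of the 33 that host none 15 were called, and their median was -0.21. Over all table genes 19.6% were called lower, with a median of -0.14. Exons of 10 canonical members overlap another gene on the same strand, among them RPL17, RPL36, RPS10 and RPS13. Across the 50 canonical members, which share libraries and scale, the vehicle level and the log2 fold change had Pearson's r = -0.11 and Spearman's rho = -0.19.

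Other genes of the translation machinery did not all go the way of the members. FAU, which encodes RPS30, was called lower at -0.20 (adjusted p = 0.030; not called with TMM, adjusted p = 0.23). Of 9 mitochondrial ribosomal protein genes in the table, which serve a separate ribosome, all had values below 0, with a median of -0.19. With edgeR 0 were called, DESeq2's Wald test called MRPL52 and limma called 0. At an unadjusted p under 0.05 there were 8, a count without a table-wide share beside it. Of 36 other TOP mRNAs on the list, 10 were in the table, with a median of -0.080. PABPC1, the cytoplasmic poly(A)-binding protein, was higher at 0.29 (adjusted p = 0.011), VIM, the intermediate filament protein vimentin, was higher at 0.75 from 5.73 TPM in vehicle cells (adjusted p = 0.0066), and the small nucleolar RNA host SNHG5 was lower at -0.38 (adjusted p = 0.023; not called with TMM, adjusted p = 0.061).

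Of 24 translation factors and regulators on the list, 10 were in the table. EIF2S1, the alpha subunit of the factor that brings initiator tRNA, was lower at -0.26 (adjusted p = 0.012). EIF4EBP2, a repressor of cap-dependent initiation, was higher at 0.31 (adjusted p = 0.0087), as was EIF5, which triggers GTP hydrolysis at the start codon, at 0.22 (adjusted p = 0.032). These 3 calls held with TMM. Of 13 chaperones and assembly factors of ribosomal proteins, NPM1, RRS1, LTV1 and GRWD1 were in the table, at -0.14, -0.17, -0.22 and -0.22. With edgeR 0 were called, DESeq2's Wald test called NPM1 and limma called 0. All 4 had an unadjusted p under 0.05, for which no table-wide share was counted. Of 17 regulators of ribosomal protein synthesis 4 were in the table. Only MYC was called, at -0.28 (adjusted p = 0.036), and it was not called with TMM (-0.21, adjusted p = 0.46). The study itself reported Myc mRNA as not significantly changed by SSD in RNA-seq and RT-qPCR, and Myc protein as lower.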

How the data were processed

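PolyA RNA-seq libraries of AGS cells (vehicle and SSD, 3 each) were read from a single deposited table, whose columns were mapped to samples by name; the treated columns carry a code in place of SSD, the only treatment in the labels, and their replicate number. Each estimated count was deposited by the authors as the expected number of reads per gene and library (33.5% not whole). The deposited TPM were scaled by the authors to all transcripts of a library. Both came from an online platform of the sequencing company, and the submitters' processing notes name GRCh38.p13. The aligner and counting program are not given in the sources used here. The deposited p-values and adjusted p-values of the authors' own comparison were used only to find the number of genes tested (11289), and their fold changes were not used.

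Counts were rounded and fitted with edgeR 4.0.16 (quasi-likelihood test) in R 4.3.3. Library sizes were the median ratio of counts to TPM over the 956 genes with at least 10 TPM. Benjamini-Hochberg adjustment ran over 11289 genes, taking those outside the table as having larger p. edgeR's count filter kept all 1099 genes. The fitting script was tested on simulated data. Alternatives were TMM, DESeq2 1.42.0 size factors and its Wald test, table totals, a scale without the members, limma 3.58.1 on the log2 of TPM with a pseudocount of 1 or 0.1, other filters, a replicate block, each library left out, adjustment over the table alone and, chosen after seeing the data, a length offset. An exact permutation test (two-sided) of these groups of 3 has p = 0.1 as its smallest value, so none was used for single genes. Depth of the whole libraries is unknown; the table totals limit the precision.

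Members and lists were chosen with earlier results of these data known. A few genes enter the counts and sums and are not reported here by name. TPM in every library and full statistics are given for the 3 lowest and 2 highest members of each subunit, for every row that is not a canonical gene, and, chosen after values were seen, for the other calls that held without each library and for RPS6. Annotation came from GENCODE release 29 (GRCh38; 58 members matched), start windows from RefSeq (GRCh38.p14), and pseudogene identity from edlib alignment.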

Additional observations from a re-analysis of the deposited data

How the results depend on the processing

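On the whole-library scale 24 members were called lower. Other scales gave 8 (TMM), 9 (DESeq2's size factors), 13 (totals of the table) and 37 (scale without the members); limma gave 1 with either pseudocount, adjustment over the table alone 46 and the length offset, chosen after seeing the data, 4. DESeq2's Wald test gave 36, no filter 24 and a mean of at least 100 counts 23. Leaving out a library gave 7 to 31, with 7 without vehicle replicate 2 or SSD replicate 2. Called higher were 0 in every setting run. Over the table, lower calls were 215 and became 87 (TMM), 86 (DESeq2's size factors), 126 (totals), 60 and 52 (limma with pseudocounts of 1 and 0.1), 580 (adjusted over the table) and 84 (length offset), and 78 to 282 without a library; higher calls were 372 and became 122 and 117 (limma) and 197 (length offset), and 172 to 382 without a library. Median log2 fold changes of large and small subunit names were -0.20 and -0.21; TMM gave -0.12 and -0.14, DESeq2's size factors -0.10 and -0.12, totals -0.14 and -0.16, and leaving out a library -0.22 to -0.17 and -0.23 to -0.16. Summed TPM moved from -0.15 (log2) to between -0.17 and -0.13 without a library and -0.17 against the other transcripts.

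With DESeq2's size factors 48 of 58 members stayed below 0, and those whose sign turned include RPL13A (0.0036), RPL5 (0.015), RPL7L1 (0.015), RPL41 (0.024), RPL23 (0.029), RPS6 (0.0011), RPS25 (0.0091), RPS24 (0.022) and RPS3A (0.033). Signs also turned with TMM for RPL41 (0.0051), RPL23 (0.0098), RPS24 (0.0028) and RPS3A (0.013); with limma for RPL41 (0.015 with either pseudocount) and RPS6 (0.026 with either); and with the length offset for RPL41 (0.014) and RPS6 (0.034). The cause was not tested.

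With the replicate number as a block, 7 members were called lower (12.1%, background 8.1%). Of all genes listed, 89 were called lower and 182 higher. The numbers do not pair the libraries: correlations of same-numbered deviations were -0.23, -0.0092 and -0.032, and no vehicle library correlated best with the SSD library of its own number. Depth beyond the table is unknown.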
